A study of Homo sapiens with 4 samples.

Results

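H3K27ac peaks that were called in K562 cells both with and without daunorubicin, and that stood lower among the shared peaks after the drug, numbered 2912 of 30495. The 30495 are one-to-one pairs: 1 daunorubicin peak and 1 untreated peak that overlapped by at least 1 bp and overlapped no other peak of the opposite list. Each peak carried a score given by the authors' peak caller. The score of every paired peak was turned into a percentile among the paired peaks of its own list, ties averaged, and a pair was kept when its percentile was at least 25 points lower with daunorubicin. These falling pairs were 9.55% of all pairs. A further 2985 pairs, 9.79%, stood at least 25 points higher and are called rising, and the other 24598 are called steady. These near-equal counts come from ranking paired peaks alone: ranked among all peaks of each list, 824 pairs fell and 7525 rose. The pairs were chosen by these scores, so score ranks are given here as a description and not as a finding. A fall in rank places a peak lower among shared peaks and does not measure how much acetylation it lost.

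K562 is a human cell line from a chronic myeloid leukaemia in blast crisis, with erythroid and megakaryocytic features. The series held 4 chromatin immunoprecipitation libraries: H3K27ac with daunorubicin, H3K27ac without treatment, and an input library without antibody for each condition. Treated cells had been given 1 uM daunorubicin for 18 h, and the other cells were left untreated. Each condition had 1 library per target, from 1 line, so nothing measures the spread between cultures and no test between conditions was made. The lists held 65118 daunorubicin and 38626 untreated H3K27ac peaks. Of 10 erythroid and progenitor genes, 9 carried a peak no farther than 1 kb from an end in both lists, and HBE1, an embryonic globin gene, had none in either. Of 15 marker genes of T cells, B cells, epithelium, monocytes and fibroblasts, 7 had one in the untreated list and 8 in the daunorubicin list.

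H3K27ac is the acetylation of lysine 27 on histone H3, placed mainly by the acetyltransferases EP300 and CREBBP, removed by histone deacetylases and found at active promoters and enhancers. Daunorubicin is an anthracycline that slides between DNA base pairs, traps topoisomerase II on cut DNA and can evict histones from chromatin. Promoters rich in CpG dinucleotides carry the mark in most cell types, and GC boxes and ETS sites, bound by SP and ETS family factors, are frequent in them.

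The promoter sequences below show the base composition in which falling and steady promoters differed, and 3 of the motifs searched. Each is the stretch of 250 bases just before a start given for the gene, 5′ to 3′ on the gene's own strand, from RefSeq on GRCh38.p14. Capitals mark GC boxes (GGGCGG), ETS sites (CCGGAAG) and E-boxes (CACGTG) on either strand. The first 6 belong to falling pairs and the last 2 to steady pairs, and all were picked after their values were seen.
C2CD2, chr21:41954019-41954268, minus strand: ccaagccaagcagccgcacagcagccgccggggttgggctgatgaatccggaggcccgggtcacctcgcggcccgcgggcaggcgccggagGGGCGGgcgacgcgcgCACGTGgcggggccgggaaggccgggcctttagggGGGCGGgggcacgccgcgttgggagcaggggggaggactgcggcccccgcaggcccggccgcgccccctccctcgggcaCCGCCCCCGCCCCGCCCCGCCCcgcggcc
MLXIP, chr12:122078506-122078755, plus strand: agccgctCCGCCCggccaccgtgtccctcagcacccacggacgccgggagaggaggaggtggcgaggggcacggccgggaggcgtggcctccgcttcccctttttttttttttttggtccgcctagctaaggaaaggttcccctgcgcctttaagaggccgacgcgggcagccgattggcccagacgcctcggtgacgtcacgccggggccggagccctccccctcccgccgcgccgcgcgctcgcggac
EPB41, chr1:28886850-28887099, plus strand: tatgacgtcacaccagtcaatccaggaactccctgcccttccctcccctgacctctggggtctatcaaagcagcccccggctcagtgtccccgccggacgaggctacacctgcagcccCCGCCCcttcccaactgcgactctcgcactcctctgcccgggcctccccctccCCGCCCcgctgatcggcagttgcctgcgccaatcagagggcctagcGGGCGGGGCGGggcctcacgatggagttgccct
HDAC3, chr5:141636850-141637099, minus strand: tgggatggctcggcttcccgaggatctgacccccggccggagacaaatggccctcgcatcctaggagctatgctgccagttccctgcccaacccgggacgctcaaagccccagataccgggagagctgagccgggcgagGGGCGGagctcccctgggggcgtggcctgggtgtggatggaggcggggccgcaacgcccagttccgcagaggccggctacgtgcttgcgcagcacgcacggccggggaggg
TXN, chr9:110256508-110256757, minus strand: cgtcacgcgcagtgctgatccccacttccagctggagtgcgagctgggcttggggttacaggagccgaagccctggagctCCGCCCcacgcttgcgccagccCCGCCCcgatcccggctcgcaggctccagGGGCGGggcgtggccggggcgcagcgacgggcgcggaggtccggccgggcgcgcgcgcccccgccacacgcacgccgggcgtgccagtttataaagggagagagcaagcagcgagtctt
PPAN, chr19:10106112-10106361, plus strand: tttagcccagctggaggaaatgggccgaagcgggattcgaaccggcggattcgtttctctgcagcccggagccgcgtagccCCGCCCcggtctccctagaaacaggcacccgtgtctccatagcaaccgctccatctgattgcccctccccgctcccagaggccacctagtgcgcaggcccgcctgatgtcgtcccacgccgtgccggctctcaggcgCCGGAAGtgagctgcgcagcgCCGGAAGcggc
RFC4, chr3:186806483-186806732, minus strand: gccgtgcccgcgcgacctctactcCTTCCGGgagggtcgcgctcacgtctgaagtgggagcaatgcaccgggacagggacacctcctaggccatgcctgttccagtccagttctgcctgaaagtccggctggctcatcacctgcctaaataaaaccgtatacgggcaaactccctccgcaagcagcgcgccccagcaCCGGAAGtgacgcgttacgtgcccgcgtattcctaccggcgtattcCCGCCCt
ATR, chr3:142578734-142578983, minus strand: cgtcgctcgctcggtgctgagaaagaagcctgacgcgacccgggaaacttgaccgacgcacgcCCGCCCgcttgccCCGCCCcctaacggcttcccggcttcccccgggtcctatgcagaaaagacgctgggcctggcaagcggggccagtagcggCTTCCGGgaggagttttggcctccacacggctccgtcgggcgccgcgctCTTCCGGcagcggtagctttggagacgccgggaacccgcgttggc
The C2CD2 stretch was 82.8% G and C and held 6 GC boxes, 1 E-box and no ETS site, and its pair fell by 63.5 points. MLXIP, which encodes a glucose-sensing partner of MLX, had 71.2% G and C and 1 GC box. EPB41, which encodes protein 4.1 of the red cell skeleton, had 68.4% and 4 GC boxes. HDAC3, a histone deacetylase, had 70.8% and 1 GC box, and TXN, the thioredoxin gene, had 73.6% and 3. PPAN, a ribosome assembly gene, differed from these 5 in holding 2 ETS sites, and its pair fell by 66.0 points. The annotated PPAN gene begins at chr19:10106223, so both ETS sites of this stretch lie inside it. They lie just before the start of the overlapping gene PPAN-P2RY11, at 10106362. Steady pairs lay at RFC4, a subunit of the clamp loader of DNA replication, and ATR, a kinase of the DNA damage response. Each of these held 2 ETS sites, at 62.8% and 69.6% G and C, with pair changes of -2.8 and 2.1 points. The untreated peak covered all 250 bases shown except at EPB41, with 202, and PPAN, with 81.

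In the untreated list the falling pairs sat mostly in the middle ranks, and with daunorubicin most of them were in the lowest ranks. Their median score was 60 (quartiles 43 to 106) without the drug and 35 (25 to 52) with it, which put the median percentile at 55.6 before and 18.4 after. The 2 lists may differ in scale. Over all pairs the score at the 10th, 50th and 90th percentile was 19, 50 and 261 in the untreated list and 26, 74 and 201 in the daunorubicin list. The untreated list was therefore spread more widely, with lower low scores and higher high scores. The median change was -32.9 points, and the pair that moved most dropped by 82.5. Falls of at least 40 points numbered 700, of at least 50 points 202, and of at least 60 points 43. The threshold did not separate distinct kinds of peak: the 209 pairs just inside it had median scores of 59 and 47, and the 230 just outside it 51.5 and 43.5. Only pairs with an untreated percentile of at least 25 can fall by that much, and 23104 pairs had one. Shares "of pairs that could fall" refer to these. Pairs less than 25 points from the top of the untreated list cannot rise by that much. Shares that rose are nevertheless given over all pairs. No falling pair overlapped a peak of either input list, but those lists held only 87 peaks with the drug and 92 without. Such overlaps were rare everywhere, with 2 rising and 26 steady pairs.

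**Figure D1:**
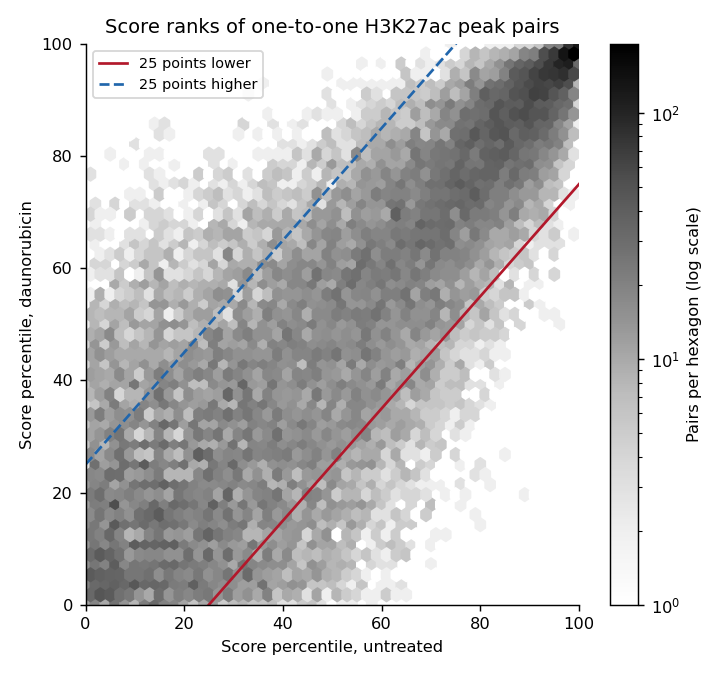
Score percentile of each one-to-one pair in the untreated list (horizontal axis) and the daunorubicin list (vertical axis), as hexagons shaded by the number of pairs on a log scale. Pairs under the solid line fell by at least 25 points and number 2912, and pairs above the dashed line rose by at least 25 points and number 2985.

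Falling peaks kept about the same width, while most other shared peaks were wider with daunorubicin. The median width of falling peaks was 746 bp without the drug and 766.5 bp with it, and the median ratio within a pair was 1.008. Falling pairs were narrower with daunorubicin in 49.0% of cases (95% Wilson interval 47.2 to 50.8), against 31.2% of steady and 10.7% of rising pairs. The daunorubicin peak lay wholly inside the untreated one in 27.3% (25.7 to 29.0), against 13.6% of steady and 2.81% of rising pairs. The same order held at like untreated rank: between percentiles 40 and 60 the median width ratio was 0.986 for falling, 1.17 for steady and 1.25 for rising pairs. A caller's score and the width of the peak come from the same reads, so width is not independent of the rule.

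Falling pairs were at gene ends and in gene bodies in near equal parts, and so were all pairs. Of 2912, 42.7% (40.9 to 44.5) had an untreated peak within 1 kb of either end of an annotated gene, 42.0% (40.2 to 43.8) lay elsewhere in a gene and 15.3% (14.0 to 16.6) lay between genes. Over all 30495 pairs these shares were 39.8%, 41.7% and 18.5%, and over all pairs that could fall 48.4%, 34.6% and 16.9%. Among pairs that could fall, steady pairs were at gene ends in 51.1%, in gene bodies in 32.6% and between genes in 16.3%. Rising pairs among these were at gene ends in 18.5%, in gene bodies in 49.8% and between genes in 31.7%. The order of falling and steady pairs turned with a score minimum (the untreated median, in both lists), where gene ends were 80.1% of falling and 74.8% of steady pairs. With a reciprocal overlap of at least 50% the 2 were near equal, at 59.1% of falling and 59.9% of steady pairs. Where a peak stood before the drug went with how these classes compared. Between percentiles 40 and 60 the share that fell was 24.7% (22.6 to 27) at gene ends, 20.3% (19 to 21.8) in gene bodies and 15.7% (14.0 to 17.6) between genes. Above percentile 80 the order of the first 2 turned, with 4.68% (4.15 to 5.28) at gene ends, 8.91% (6.75 to 11.7) in gene bodies and 2.80% (1.29 to 5.98) between genes. Peaks between genes had the lowest share in each band from percentile 20 up, although the intervals overlapped in the lowest of these bands and with gene ends in the highest. The contrast with rising pairs rested on ranking all classes together: ranked within each class, gene ends were 21.5% of falling, 29.7% of rising and 45.2% of steady pairs. Wilson intervals here cover counting error only and treat neighbouring peaks as independent.

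**Figure D2:**
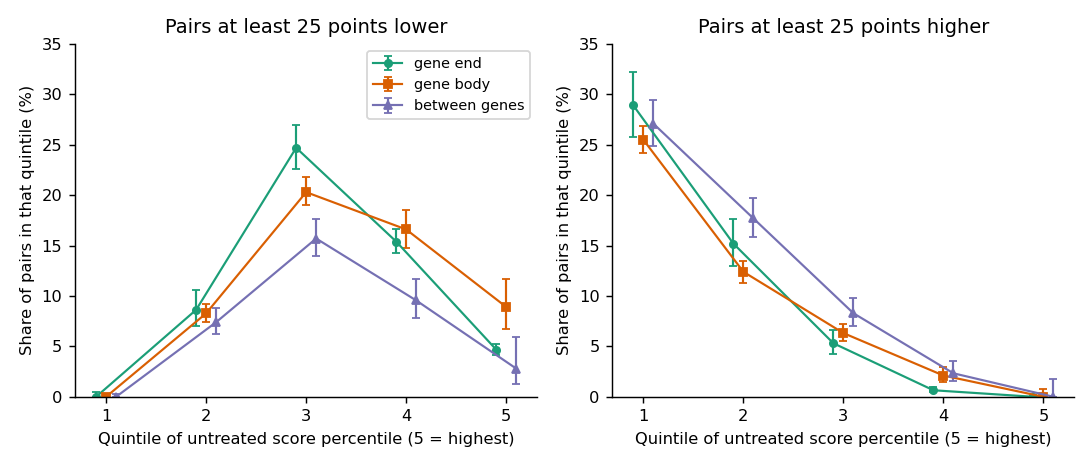
Share of pairs that fell (left) or rose (right) by at least 25 points, by quintile of untreated score percentile (20 points each, 5 the highest) and position class, with 95% Wilson intervals. Falls peak in the middle quintile, at 24.7% of gene-end pairs. The lowest quintile cannot fall and the highest cannot rise by 25 points.

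Falling promoters were richer in G and C than promoters that held their rank. RefSeq promoter windows, from 250 bases before to 50 after a start, were met by the untreated peak of 695 falling, 6780 steady and 91 rising pairs. The median G and C share of these windows was 70% (quartiles 63.8 to 75.6) for falling, 66.3% for steady and 62% for rising pairs, and the median number of CpG dinucleotides was 30, 28 and 21. Over all 22199 coding windows of the table it was 62.3%. The share that fell, of promoter pairs that could fall, went up over every quintile of G and C share: 5.85% (4.76 to 7.18), 6.70%, 8.52%, 10.8% and 15.2% (13.4 to 17.1). In the same order 2.44%, 1.13%, 1.15%, 0.615% and 0.662% of promoter pairs rose. Untreated scores did not follow this order, with medians of 172.5, 202, 208, 211 and 197, while the daunorubicin medians were 143, 154, 153, 147 and 132. At like untreated rank the difference was also seen: between percentiles 60 and 80 the median G and C share was 71.0% for 329 falling and 65.3% for 1988 steady pairs, and above 80 it was 69.8% for 194 and 66.9% for 4144. The G and C share of peaks away from promoters was not analysed here.

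**Figure D3:**
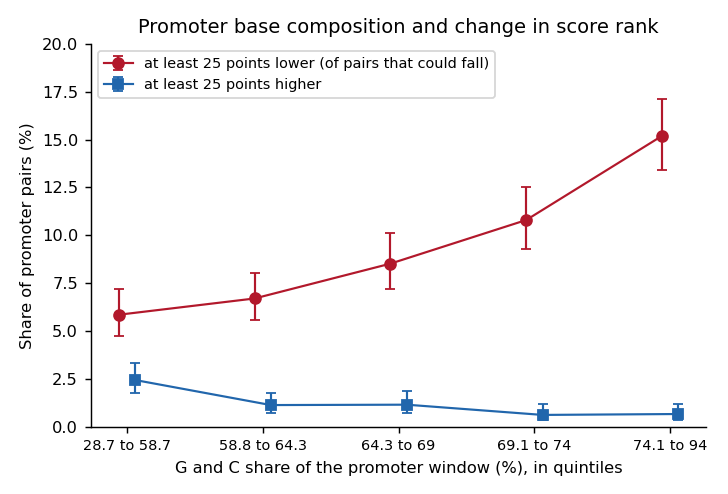
Share of promoter pairs that fell (circles, of pairs that could fall) or rose (squares) by at least 25 points, in quintiles of the G and C share of the promoter window, with 95% Wilson intervals. Falls go from 5.85% in the lowest quintile to 15.2% in the highest, and rises from 2.44% to 0.662%.

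Of 10 promoter motifs searched on both strands of the 300-base windows, the ETS site and the YY1 motif were rarer in falling than in steady promoters, the GC box was more frequent, and the other 7 had overlapping intervals. The ETS site CCGGAAG was in 13.9% (11.6 to 16.6) of 735 falling promoters, in 23% (22.1 to 24.0) of 7459 steady ones that could fall and in 14.2% of the promoters of all coding genes in the table. Each gene and pair counted once here. In each quintile of G and C share the falling promoters had the lower share, from 15.1% against 24.9% in the lowest quintile to 11.1% against 15.2% in the highest. The intervals overlapped in the lowest quintile and in the 2 highest. It was lower too in each untreated band, with 15.1% (11.7 to 19.2) against 22.5% (20.8 to 24.3) between percentiles 60 and 80, and 19.6% (14.8 to 25.5) against 24.7% (23.5 to 26.0) above 80. The YY1 motif AAGATGGC was in 2.99% of falling, 6.34% of steady and 3.91% of all promoters. In the middle G and C quintile it was slightly higher, in 5.97% of falling and 5.62% of steady promoters, and in the other quintiles lower. The intervals were apart only in the second highest quintile, at 0% (0 to 2.25) against 4.01% (3.10 to 5.15), and overlapped in all others. Between percentiles 40 and 60 it was in 1.86% and 0.752%, which is 3 promoters in each set. Between percentiles 60 and 80 it was lower, at 1.45% (0.621 to 3.35) against 4.73% (3.92 to 5.69). Above 80 the shares were 6.70% (4.03 to 10.9) and 7.79% (7.05 to 8.59), with overlapping intervals. The GC box GGGCGG was in 82.2% of falling, 74.0% of steady and 58.5% of all promoters. Within quintiles of G and C share the difference went both ways, with overlapping intervals in each. It was 43.0% against 42.5% in the lowest and 96.6% against 96.1% in the highest. Between these it was 61.9% against 66.9%, 85.1% against 78.4% and 93.4% against 90.7%. E-boxes (CACGTG) were in 11.7% of falling, 10.4% of steady and 8.88% of all promoters, and the GATA motif AGATAA, bound by erythroid GATA factors, in 4.08%, 4.33% and 7.57%. The CCAAT box (CCAAT) was in 32.5%, 34.7% and 36.4%, and the AP-1 site (TGACTCA or TGAGTCA) in 2.59%, 2.86% and 3.66%. The palindromic NRF1 motif was in 1.77%, 2.75% and 1.75%. The cyclic AMP element (TGACGTCA) was in 2.99%, 3.58% and 2.59%, and the E2F site (TTTCGCGC) in 0.816%, 1.14% and 0.814%. Falling promoter pairs also spanned starts on both strands less often, in 4.75% (3.40 to 6.59) against 10.6% (9.87 to 11.3) of steady promoter pairs. A wider peak can meet more windows, and this share was not compared at like width. Over all pairs the median untreated width was 746 bp for falling and 950 bp for steady pairs.

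Falling pairs were unevenly spread over the chromosomes. They were 15.3% (13.6 to 17.2) of the pairs of chromosome 19, 15.2% (12.7 to 18.1) of chromosome 22, 12.6% of chromosome 16 and 11.7% of chromosome X. Of pairs that could fall, 17.9% did so on chromosome 19 and 19.1% on chromosome 22. Over all pairs they were 6.41% (5.43 to 7.54) of chromosome 6 and 7.24% (6.41 to 8.16) of chromosome 1. Rising pairs went the opposite way, with 4.86% on chromosome 19, 5.52% on chromosome X and 12.8% on chromosome 1, although chromosome 22 had 9.02%. The median promoter G and C share followed the falling shares only in part. It was 65.7% on chromosome 19, 69.7% on 22, 69.0% on 16, 63.8% on X, 64.8% on 6 and 65.5% on 1. On chromosome 21 it was 71.0%, and 9.09% of pairs fell there.

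**Figure D4:**
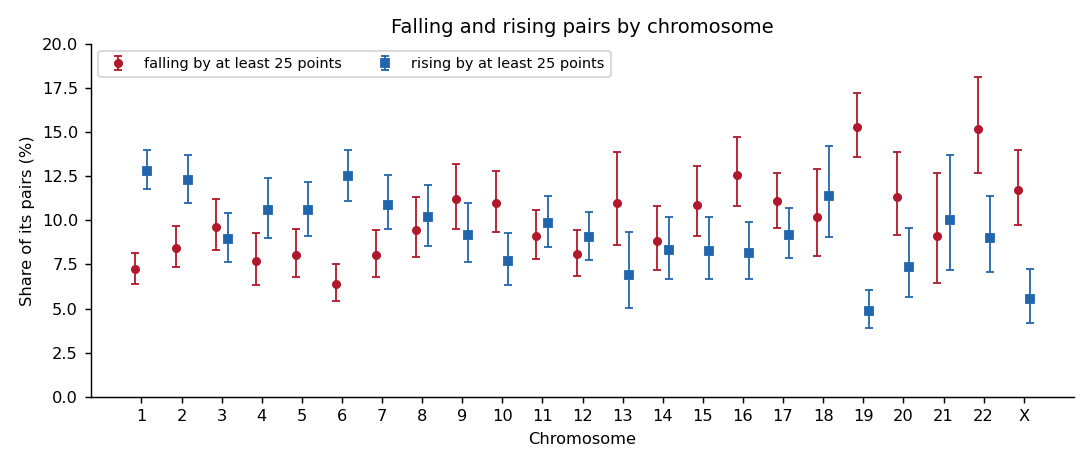
Share of one-to-one pairs on each chromosome that fell (circles) or rose (squares) by at least 25 points, with 95% Wilson intervals. Chromosomes 19 and 22 have the highest shares of falling pairs, 15.3% and 15.2%, and chromosome 6 the lowest, 6.41%.

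The outer ends of chromosomes and gene-dense stretches held larger shares. Within 1 Mb of the outermost annotated gene of a chromosome 18.4% (15.9 to 21.3) of 787 pairs fell and 3.94% rose. From 1 to 3 Mb 18.4% fell, from 3 to 10 Mb 12.4%, and beyond 10 Mb 8.43% (8.09 to 8.78), where 10.5% rose. Without chromosome 19 the 4 shares were 19%, 18.1%, 11.7% and 8.24%. The promoters met by pairs in these bands also differed in base composition, with a median G and C share of 72.0%, 72.7%, 68.0% and 65.7%. With 0 or 1 protein-coding genes within 50 kb, 11.7% of the pairs that could fall did so, and with 7 or more 18.0% (15.9 to 20.4). Rising pairs made up 12.4% and 3.05% of pairs in the same surroundings. Gene density was not set beside base composition or distance from the chromosome end. The parts of these 3 traits cannot be told apart from these shares.

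Pairs near a falling pair fell somewhat more often than pairs near a steady one. Of the other pairs that lay 10 to 50 kb from a falling pair, 13.7% fell and 6.65% rose; around rising pairs 6.92% fell and 14.2% rose, and around steady pairs 10.2% fell and 9.71% rose. Closer by, within 10 kb, the falling share differed less, at 13.3% around falling, 11.7% around steady and 9.96% around rising pairs. From 50 to 200 kb it was 11.8%, 9.95% and 8.19%. Another falling pair was found within 50 kb of 31.5% (29.9 to 33.2) of falling pairs, and a rising one within 50 kb of 19.1%. Rising pairs were grouped to a like degree, with another rising pair within 50 kb of 33.3% (31.6 to 35) and a falling one of 18.9%. Peaks called only with daunorubicin lay within 50 kb of 78.7% of falling, 83.1% of steady and 89.0% of rising pairs. Peaks called only without it lay there for 37.2%, 32.5% and 32.2%. In all, 2266 falling pairs had a pair that did not fall on either side, and 249 runs had 2 falling pairs in a row, 35 had 3, 8 had 4 and 1 had 5. As 9.55% of all pairs fell, most falling pairs would stand alone without any grouping.

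The run of 5 was at chr9:136712490-136791855, by TMEM141 and the lipocalin genes LCN10 and LCN6, whose products bind small lipophilic molecules. Its changes lay between -33.0 and -58.2 points. One run of 4 was at the ends of TRABD, SELENOO, TUBGCP6 and HDAC10 (chr22:50186189-50245710), with changes from -26.7 to -36.7 points. TUBGCP6 encodes a part of the complex that starts microtubules, and HDAC10 a polyamine deacetylase. Within 50 kb of TUBGCP6 6 of 8 pairs fell, and within 50 kb of KLF16, a zinc finger gene on chromosome 19, 6 of 16. Another run of 4 lay along MYH9 (chr22:36328705-36388089), which encodes non-muscle myosin heavy chain, with changes from -29.8 to -40.1 points. A further one was at FGFRL1 (chr4:997477-1040280), a fibroblast growth factor receptor without a kinase domain, with changes from -37.3 to -55.7 points.

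The largest fall was a peak in HAGHL, beside CCDC78 (chr16:727061-728387 in the untreated list). It scored 295 without the drug, at percentile 93.0, and 27 with it, at percentile 10.5. Its width barely moved, at 1327 bp and 1266 bp. At HES7, a transcription repressor of the segmentation clock, the score was 247 (percentile 88.6) and then 35 (18.4). FKBP4, a co-chaperone of steroid receptors, had a peak at its lower-coordinate end that scored 275 (91.3) and then 39 (22.2), and that peak was wider with the drug, at 987 bp and 2061 bp. A peak at one end of MAFK, which encodes a small MAF partner of NRF2 and NFE2, scored 246 (88.5) and then 36 (19.4). At the start of KRI1, a ribosome assembly gene that begins just past the 3′ end of the cell cycle inhibitor CDKN2D, the score was 174 (79.7) and then 28 (11.5). All 5 were above percentile 75 in the untreated list and under percentile 25 in the daunorubicin list.

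In gene bodies the largest fall was in SAXO5 (chr19:7505675-7506262), with scores of 127 (percentile 72.7) and 13 (0.3). PLPPR3, a membrane protein of neurons, followed with 268 (90.7) and 37 (20.3). An intragenic peak of ABCA3 scored 81 (63.1) and then 15 (1.1). TOP1MT, the mitochondrial topoisomerase I, had an intragenic peak with 110 (69.6) and 23 (6.9). Between genes, a peak 23295 bp from PSAP, which encodes the precursor of the saposins, scored 87 (64.7) and then 16 (1.6). One 8260 bp from PPP1R1B scored 128 (72.8) and then 28 (11.5), and there 3 of the 5 pairs within 50 kb fell. A peak 19325 bp from TCF3, which encodes an E protein that pairs with TAL1, scored 174 (79.7) and then 41 (24.2).

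At the level of genes, 10285 protein-coding genes had a pair within 1 kb of either end. A falling pair was there for 1121, or 10.9%, and a rising pair for 235, or 2.28%, and the median change of pairs at gene ends was -3.15 points. These 2 shares cannot be compared with each other. The median untreated percentile of these pairs was 80.6, and a pair that high cannot rise by 25 points. Lists of genes that fit this cell line and drug are read against those shares. Among erythroid transcription factors 4 of 8 genes with a pair had a falling one, none had a rising one and the median change was -9.12 points. KLF1, the activator of adult globin genes, had 3 pairs. The one at its 3′ end (chr19:12884499-12885096) scored 121 (percentile 71.7) and then 27 (10.5). The one over its start scored 75 (61.2) and then 60 (40.2), and another near its 5′ end 250 (88.9) and then 140 (77.4), and both moved by less than 25 points. GATA1, the master regulator of the lineage, had a small falling peak at its 3′ end, from 34 (35.3) to 20 (4.4), and LYL1 one at its 3′ end, from 82 (63.4) to 49 (31.3). LDB1, the adaptor that joins GATA1 and TAL1 complexes, went from 177 (80.1) to 79 (52.7) near its 5′ end. GFI1B, an erythroid repressor, held its place at its start, from 391 (97.8) to 416 (99.7). For 3 of the 4 genes, then, the falling peak was at the 3′ end and not at the start. In a related list 2 of 10 red cell membrane genes had a falling pair: ADD2, which encodes beta-adducin, went from 66 (58.2) to 25 (8.7), and EPB41 from 189 (81.6) to 63 (42.4). No pair fell at the ends of 12 haem synthesis genes.

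Glycolysis had 7 of 17 genes with a falling pair, and a median change of -11.6 points. At HK2, hexokinase of the first step, the start peak (chr2:74834113-74835911) scored 307 (percentile 93.8) and then 78 (52.2). At ALDOC, an aldolase, it scored 92 (65.9) and then 25 (8.7). At TPI1, triose phosphate isomerase (chr12:6867476-6868416), it scored 488 (99.4) and then 107 (66.2), the highest untreated score of any falling pair. PGAM1, a phosphoglycerate mutase, went from 267 (90.5) to 93 (59.9), and GPI, glucose phosphate isomerase, from 46 (47.0) to 37 (20.3). A higher-scoring pair of GPI was steady, from 161 (77.8) to 118 (70.3). SLC2A3, the neuronal-type glucose transporter, went from 65 (57.8) to 24 (7.8). PKM, pyruvate kinase, had pairs that moved both ways: one over a RefSeq promoter window inside the gene went from 111 (69.8) to 46 (28.6), and a small one at the outermost annotated 5′ end went from 18 (8.4) to 79 (52.7). In the MYC network, 3 of 8 genes had a falling pair. MLXIP went from 159 (77.5) to 38 (21.2), its partner MLX from 80 (62.8) to 52 (33.7), and MAX, the partner of MYC, had a weak upstream peak from 27 (25.1) to 11 (0.1). That pair lay at the threshold of 25 points, and the pair over the start of MAX was steady, from 261 (90.0) to 188 (88.1).

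Genes that move or reduce anthracyclines had 3 of 12 with a falling pair and 1 with a rising one. ABCA2 and ABCA3, lysosomal lipid transporters linked to drug sequestration, went from 111 (69.8) to 38 (21.2) and from 182 (80.7) to 58 (38.7) at their starts. CBR1, the carbonyl reductase that turns daunorubicin into daunorubicinol, went from 71 (60) to 40 (23.2). Its neighbour CBR3 had a rising pair, from 19 (10.2) to 75 (50.4). Aldehyde dehydrogenases, the family named in the study's title, had 2 of 12 with a falling pair and none with a rising one. ALDH6A1, of valine breakdown, went from 132 (73.5) to 55 (36.2), and ALDH1A2, a retinaldehyde dehydrogenase (chr15:58065002-58066368), from 70 (59.6) to 50 (32.2). A higher-scoring pair near the 5′ end of ALDH6A1 was steady, from 259 (89.8) to 138 (76.8). ALDH1A1 had a pair that could not fall by the rule, from 26 (23.3) to 27 (10.5). In the retinoid list RXRA, the common partner of retinoid receptors, had 2 falling peaks at its 5′ end, from 89 (65.2) to 32 (15.5) and from 160 (77.6) to 62 (41.6), while RARG, a retinoic acid receptor, had a rising one, from 31 (31.3) to 92 (59.4).

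**Figure D5:**
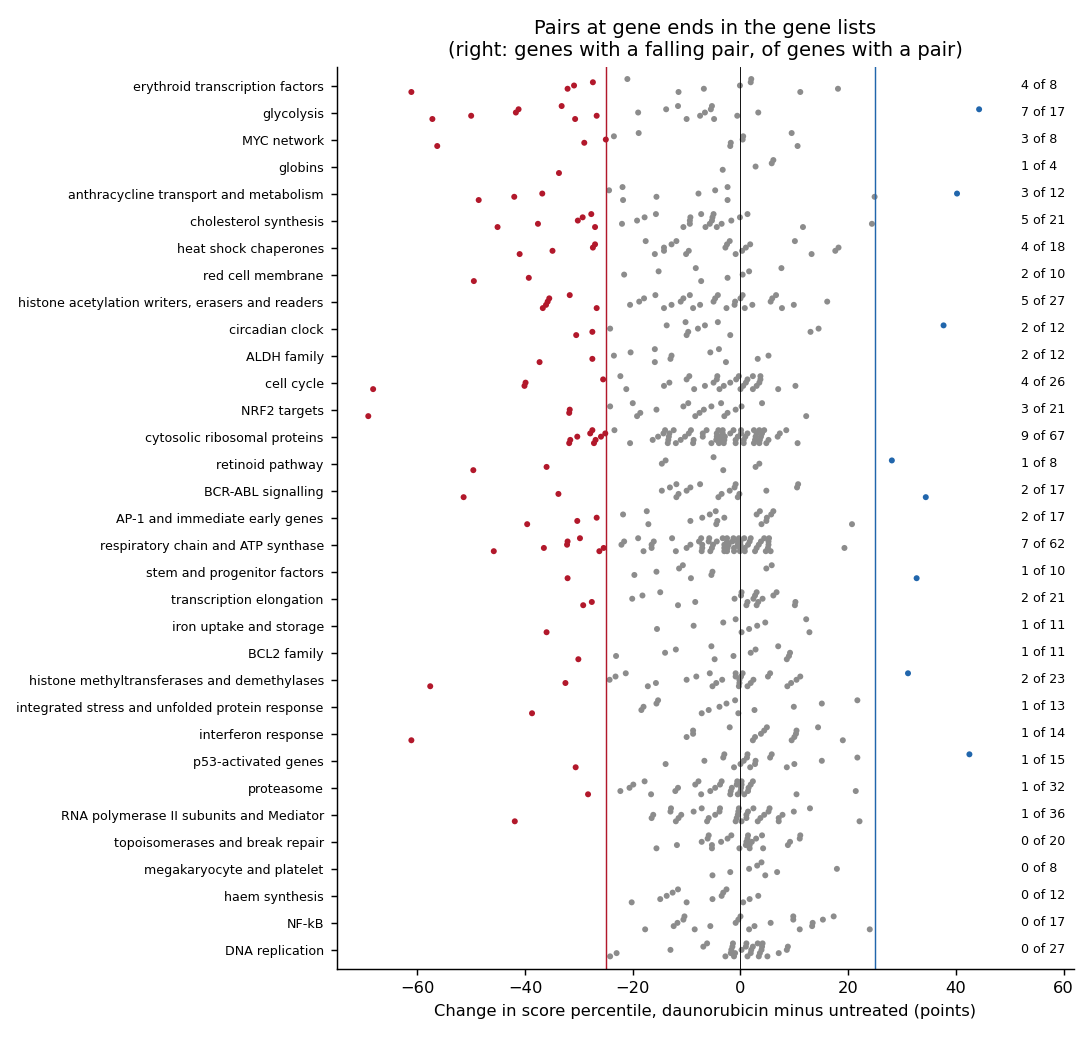
Change in score percentile (horizontal axis, daunorubicin minus untreated, in points) of each pair within 1 kb of an end of the genes in each list (vertical axis, with a small vertical offset to separate points). Red points fell and blue points rose by at least 25 points, and the count at the right is of genes with a falling pair, from 4 of 8 for erythroid transcription factors to 0 of 27 for DNA replication.

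Cholesterol synthesis had 5 of 21 genes with a falling pair, with a median change of -9.32 points. SQLE, squalene epoxidase, went from 70 (59.6) to 31 (14.6), and MVK, mevalonate kinase, from 224 (86.0) to 85 (55.9). Another pair at the same end of SQLE was steady. It scored 71 and then 82, with a change of -5.7 points. Of 27 genes that write, erase or read histone acetylation 5 had a falling pair. KAT2A, the GCN5 acetyltransferase, went from 320 (94.7) to 91 (58.9), KAT6B, another acetyltransferase, from 117 (70.9) to 54 (35.4), and HDAC3 from 69 (59.3) to 40 (23.2). SIRT7, a deacetylase of the nucleolus, had a falling pair at each end, of which one is also the 3′ end of MAFG. Heat shock chaperones had 4 of 18, among them HSPA8, the constitutive HSP70, from 105 (68.6) to 52 (33.7). A higher-scoring pair near the 5′ end of HSPA8 was steady, from 415 (98.4) to 289 (97.5). NRF2 targets had 3 of 21, among them TXN from 198 (82.8) to 76 (51.0). In the cell cycle list 4 of 26 had one, with E2F3 from 58 (54.7) to 31 (14.6) and CCND3, cyclin D3, from 144 (75.2) to 54 (35.4). Both genes also had a higher-scoring steady pair. At the start of E2F3 it went from 257 (89.6) to 215 (91.8), and near the 5′ end of CCND3 from 205 (83.7) to 184 (87.4). CISH, a STAT5-induced feedback inhibitor in the list of BCR-ABL signalling, went from 127 (72.7) to 38 (21.2) at its start.

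The circadian clock list had 2 of 12 genes with a falling pair and the globins 1 of 4. Cytosolic ribosomal proteins had 9 of 67 genes with a falling pair and the respiratory chain 7 of 62, with changes between -25.1 and -31.8 points in the first. RNA polymerase II subunits and Mediator had 1 of 36, with POLR2E, a shared polymerase subunit, from 198 (82.8) to 61 (40.9), and the proteasome 1 of 32. No gene had a falling pair among 27 of DNA replication, 20 topoisomerases and break repair genes, 17 of the NF-kB pathway and 8 of megakaryocytes and platelets. TOP2A, the main target of the drug in dividing cells, scored 301 (percentile 93.4) and then 240 (94.5) at its start, and TOP2B 289 (92.5) and then 183 (87.2). The starting rank of the lists differed: the median untreated percentile was 89.9 for DNA replication, 77.5 for topoisomerases and break repair, 81.1 for glycolysis and 62.3 for erythroid factors, against 80.6 for all pairs at gene ends. As the shares by rank show, falls were rarer above percentile 80. The lists are small, share genes and were read without a test.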

How the data were processed

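Chromatin immunoprecipitation libraries from K562 cells gave 1 peak list each, and groups came from the antibody and treatment labels. The submitters' processing notes list MACS2 2.1.1, Bowtie2 2.3.4.3 and deepTools 3.2.1, with both hg38 and hg19 as builds, but no roles or parameters. The deposited lists give 1 score per peak, as the authors' caller wrote it, and no formula for it was found in the labels. Sequencing depth is unknown because no read counts were used. Chromosome names follow hg38, and 10285 protein-coding genes of that build had a paired peak at an end. Peaks were paired and ranked within each list in Python 3.11.15 with pandas 2.3.3. The steps had first been tested on simulated data, where the overlaps found were checked against bedtools 2.31.1. Genes came from RefSeq on GRCh38.p14 (59679 genes, 20037 protein-coding), and promoter sequences from a RefSeq table of the same build that is not complete; strand is known only for genes in that table. Coordinates count from 1. The 95% Wilson intervals reflect counting error alone. The 33 gene lists held 826 genes, of which 825 matched by symbol. The falling pairs and the lists were chosen with earlier results of these data known. Genes to name were the largest falls at gene ends, in gene bodies and between genes and the list members with a pair past 25 points; those printed were picked among them, with steady members added for contrast, after their values were seen. Settings varied were the size of the fall, the peaks ranked, the pairing, a score minimum, the inputs, the chromosomes, and the definition of gene ends and of neighbours.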

Additional observations from a re-analysis of the deposited data

How the results depend on the processing

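Each condition had 1 library, so no setting measures variation between cultures. No paired analysis was possible because each group had 1 library and no result comes from a test. Leaving out pairs that overlap an input peak, or pairs outside chromosomes 1 to 22 and X, left every result within its interval. A fall of at least 20 points gave a median width difference of 28 bp and a neighbour share (another falling pair within 50 kb) of 38.9%; at least 30 points gave 1895 pairs, -16 bp and 25.3%. Percentiles among all peaks of each list gave 824 pairs, 801 of them among the 2912, with 30.5% at gene ends, 52.1% in gene bodies, 17.5% between genes, -53.5 bp, a median promoter G and C share of 71.1% and a neighbour share of 14.2%; this ranking adds the unpaired peaks of lists of unequal length. Ranks within position class kept 2101 of the 2912, with 21.5%, 55.5% and 23%, 40.5 bp and 34.9%. Reciprocal overlap of at least 50% gave 59.1%, 31.0% and 9.85%, and a neighbour share of 26.3%. There 59.9% of steady pairs were at gene ends. The highest-scoring daunorubicin peak per untreated peak gave a neighbour share of 34.2%. Scores at or above the untreated median in both lists gave 1866 pairs, 878 of them among the 2912, with 80.1%, 16.1% and 3.75%, 74.5 bp and 23.2%, and there gene ends were more frequent in falling than in steady pairs (74.8%). Gene ends within 2.5 kb gave 51.4%, 35.5% and 13.1%, and ends of protein-coding genes alone 33.4% and 50%. Within 10 kb the neighbour share was 8.59% and within 200 kb 59.5%. The rise of the falling share from the lowest to the highest quintile of promoter G and C was found under all 9 settings that change the pairs, from 0.615% to 2.62% in the smallest set and from 9.37% to 24.1% with the score minimum. Genes with a falling pair numbered 2 to 8 for glycolysis, 2 to 4 for erythroid transcription factors, 0 to 2 for DNA replication and 0 for topoisomerases and break repair over these settings, while the share of all coding genes with a pair went from 2.11% to 16.4%. The cause of these shifts was not tested.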

Other observations

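Genes of other programmes also held falling pairs. At IFITM1, an interferon-induced membrane protein, a peak past the 3′ end (chr11:315557-316613) scored 127 (percentile 72.7) without daunorubicin and 28 (11.5) with it, while the other 13 interferon genes with a pair had no falling one. KMT5A, which places the first methyl group on lysine 20 of histone H4, had an upstream peak from 183 (80.8) to 40 (23.2), and KMT5C, which adds further methyl groups there, had a rising one, from 66 (58.2) to 196 (89.3). GADD45A, a stress and p53 response gene, went from 289 (92.5) to 97 (61.9), and XPC, of nucleotide excision repair, had a rising pair at its 3′ end, from 22 (15.9) to 90 (58.4). The pairs over the starts of IFITM1, KMT5C and XPC were steady. They went from 120 (71.5) to 156 (81.5), from 260 (89.9) to 170 (84.7) and from 288 (92.5) to 312 (98.3). Among clock genes, NR1D1 had a rising pair, from 24 (19.8) to 88 (57.5), and PER3 a falling one, from 61 (56.1) to 46 (28.6). FOSL1, an AP-1 subunit, had a falling pair at each end, from 474 (99.3) to 125 (72.6) and from 225 (86.2) to 85 (55.9).

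Falls were also seen at 3′ ends. Of 374 pairs that could fall and lay only at a 3′ end of a gene with known strand, 19% (15.3 to 23.3) fell, against 10.3% (9.63 to 10.9) of 8187 pairs at a 5′ end. The 3′ pairs stood lower in the untreated list, with 65 of 374 above percentile 80 against 4528 of 8187. Between percentiles 60 and 80 the shares were 28.6% (20.8 to 37.8) and 14.9% (13.5 to 16.3), while between percentiles 40 and 60 they were 21.2% (14.8 to 29.4) and 27.9% (24.8 to 31.2). The ZNF genes of chromosome 19, which encode zinc finger proteins and lie in dense clusters, had a falling pair in 10 of 157 genes and a rising one in 4 (6.37% falling, against 10.9% of all coding genes with a pair).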
